A study of Mus musculus with 8 samples.

Results

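Endothelial cells line every blood vessel of skeletal muscle, and 10 genes that mark them were followed in RNA-seq libraries of mouse gastrocnemius. The genes were *Pecam1*, *Cdh5*, *Kdr*, *Flt1*, *Tek*, *Tie1*, *Eng*, *Vwf*, *Emcn* and *Cldn5*. They were taken by symbol from the 27041 rows of the deposited count table. All 10 were present, each as a single row, and all 10 passed the filter for testing, a mean count above 50 over the libraries, as did 11364 genes in all. The question was whether these transcripts differed between Ctrl and LSD1skm-/- muscle and, if so, whether they differed alike.

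Both groups were male C57BL/6J mice, 9 weeks old, that carried floxed L2 alleles of LSD1, a histone lysine demethylase encoded by *Kdm1a*. Ctrl mice were LSD1 L2/L2 without Cre. LSD1skm-/- mice also carried the HSA-Cre transgene, in which the human skeletal actin promoter drives Cre recombinase in myofibers, so that removal of the floxed first exon is directed to muscle fibers rather than endothelial cells. The sample labels name the tissue only as skeletal muscle and describe 4 libraries per group, of which 4 Ctrl and 2 LSD1skm-/- libraries (replicates 1 and 2) have counts in the table. LSD1skm-/- replicates 3 and 4 were not analysed here. The depth was 32616912 to 41278769 counted reads for a Ctrl library and 30654828 to 37788092 for an LSD1skm-/- library. Levels are given as CPM, the counts of a gene scaled by edgeR's TMM method so that libraries of different size can be compared. Against the label of skeletal muscle, 7 fast-twitch fiber genes were checked and summed to between 105100 and 132700 CPM in every library, and the 10 endothelial genes summed to between 274.4 and 374.1 CPM. In such bulk samples, fewer endothelial cells and less RNA per endothelial cell cannot be told apart.

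The targeted gene went against the label of 1 library. *Kdm1a* reached 22.95, 21.96 and 28.06 CPM in Ctrl replicates 1 to 3 but only 3.658 CPM (160 reads) in Ctrl replicate 4, close to the 2.962 and 3.483 CPM of the LSD1skm-/- libraries. The label of this library was kept, and no comparison placed it with the LSD1skm-/- libraries. It had the highest level of 8 of the 10 endothelial genes. The fold changes of the 10 endothelial genes, the counts over gene lists and most other values are therefore given with all 6 libraries and again without this library.

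The endothelium forms the inner wall of vessels and controls what passes between blood and muscle. Its cells are held together by cadherin and claudin junctions, respond to VEGF and angiopoietins through receptor tyrosine kinases, and differ in character between arteries, capillaries and veins. Muscle fibers are each surrounded by capillaries, and fibers release VEGF, so the endothelium and the fiber are in constant exchange. ETS family transcription factors are general regulators of endothelial genes, and GATA2 and SOX factors act beside them.

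Promoter sequence from RefSeq (GRCm38.p6) was given for 7 of the 10 genes, namely *Kdr*, *Flt1*, *Tek*, *Tie1*, *Eng*, *Emcn* and *Cldn5*. The 150 bases before the start of 4 receptor genes are shown 5′ to 3′, because they are the receptors through which endothelial cells read VEGF, angiopoietin and TGF-beta family signals and because they differ in the ETS motif. Capitals mark the ETS core, which was searched for on both strands as AGGAAG and also in the form that starts with C instead, CGGAAG. The positions are chr5:75978456-75978605 (minus strand) for *Kdr*, chr5:147726012-147726161 (minus strand) for *Flt1*, chr4:94739139-94739288 (plus strand) for *Tek* and chr2:32646445-32646594 (plus strand) for *Eng*. The last 3 bases of the *Kdr* window lie in its first exon in GENCODE vM21, whose start differs from that of RefSeq. Of the promoters not printed, the same window lies in *Tie1* exons over all 150 bases for *Tie1*. It lies in *Emcn* exons over 11 bases for *Emcn*.
Kdr: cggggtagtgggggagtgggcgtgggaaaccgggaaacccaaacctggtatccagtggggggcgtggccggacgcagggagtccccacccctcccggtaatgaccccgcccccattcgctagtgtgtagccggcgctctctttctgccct
Flt1: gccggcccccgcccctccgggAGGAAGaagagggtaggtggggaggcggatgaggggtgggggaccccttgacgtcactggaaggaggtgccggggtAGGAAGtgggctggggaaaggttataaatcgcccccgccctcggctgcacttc
Tek: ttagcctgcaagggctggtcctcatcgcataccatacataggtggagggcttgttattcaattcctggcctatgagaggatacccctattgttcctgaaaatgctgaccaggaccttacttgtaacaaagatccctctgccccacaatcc
Eng: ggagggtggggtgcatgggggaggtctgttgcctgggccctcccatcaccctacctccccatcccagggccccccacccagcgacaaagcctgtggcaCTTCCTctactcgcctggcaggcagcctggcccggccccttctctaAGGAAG
The core began 129 and 53 bases before the start in *Flt1* and 52 and 6 bases before it in *Eng*, and neither *Kdr* nor *Tek* held it in these letters. In windows of 250 bases before the start, searched on both strands, 4 of the 7 promoters held the ETS core (*Flt1*, *Eng*, *Emcn* and *Tie1*). Over all 32851 promoters given, 39.2% held it. The motif GATAAG, which erythroid and endothelial zinc finger factors read, was in 0 of the 7 and in 6.55% of all promoters. TATAAA was in the *Flt1* promoter alone among the 7, and in 12.4% of all promoters. The windows also differed in CG dinucleotides, with 23 in *Flt1*, 16 in *Kdr*, 12 in *Cldn5*, 6 in *Tie1*, 4 in *Eng*, 2 in *Tek* and 1 in *Emcn*. A match of this kind is a description of the sequence and not a binding site.

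Of the genes of cell contact, *Pecam1* and *Cdh5* were lower in both LSD1skm-/- libraries than in every Ctrl library. *Pecam1* encodes CD31, an adhesion molecule of the endothelial cell border. It lies at chr11:106654217-106750628 of GRCm38 on the minus strand, and its longest coding transcript has 16 exons. It was at 53.65, 52.71, 60.15 and 66.00 CPM in Ctrl replicates 1 to 4 and at 44.87 and 47.22 CPM in LSD1skm-/- replicates 1 and 2. The groups did not overlap, and the highest level was in the library labelled Ctrl replicate 4. Means were 58.1 ± 6.21 CPM (SD, n = 4) and 46.0 ± 1.66 CPM (SD, n = 2). The log2 fold change of *Pecam1* was -0.34 (SE 0.12, 95% confidence interval -0.62 to -0.052), with an adjusted p = 0.557 by edgeR's quasi-likelihood test. In the absence of Ctrl replicate 4 it was -0.27 (SE 0.11, 95% confidence interval -0.51 to -0.021, adjusted p = 0.214 by the same edgeR test).

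*Cdh5* encodes VE-cadherin, the cadherin of endothelial adherens junctions, and lies at chr8:104101625-104144511 on the plus strand (12 exons). Its CPM was 55.24, 60.16, 67.36 and 74.99 in Ctrl replicates 1 to 4. The LSD1skm-/- libraries had 48.81 and 48.36 CPM. The groups again did not overlap, and the LSD1skm-/- libraries were closer to each other than any pair of Ctrl libraries. Means were 64.4 ± 8.62 CPM (SD, n = 4) in Ctrl and 48.6 ± 0.316 CPM (SD, n = 2) in LSD1skm-/- muscle. The log2 fold change of *Cdh5* was -0.41 (SE 0.14, 95% confidence interval -0.73 to -0.087, adjusted p = 0.557 by edgeR's quasi-likelihood test). Leaving out the library labelled Ctrl replicate 4 gave -0.32 (SE 0.11, 95% confidence interval -0.59 to -0.056, adjusted p = 0.17, edgeR).

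*Cldn5* encodes claudin-5, which seals endothelial tight junctions, and it is a gene of 1 exon at chr16:18776847-18778262 on the plus strand. It had the fewest reads of the 10 genes, at 4.514, 4.467, 6.667 and 9.579 in Ctrl replicates 1 to 4, against 4.915 and 4.44 in LSD1skm-/- libraries. Ctrl replicates 1 and 2 were level with the LSD1skm-/- libraries, so that the lower LSD1skm-/- mean rested on Ctrl replicates 3 and 4. Its log2 fold change was -0.44, with the widest confidence interval of the 10 genes, -1.20 to 0.33 (SE 0.33, adjusted p = 0.676 by edgeR's quasi-likelihood test). It was -0.16 (SE 0.22) without the library labelled Ctrl replicate 4.

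Both VEGF receptors had lower means in LSD1skm-/- muscle, and both overlapped between the groups when all libraries were used. *Kdr* encodes VEGFR2, the main signaling receptor for VEGF-A, and lies at chr5:75932827-75978458 on the minus strand (30 exons). It was at 17.45, 20.92, 13.36 and 25.19 CPM in Ctrl replicates 1 to 4 and at 14.12 and 13.21 CPM in LSD1skm-/- replicates 1 and 2. Ctrl replicate 3 was as low as the LSD1skm-/- libraries, and the other 3 Ctrl libraries were higher. For *Kdr* the log2 fold change was -0.49, with a 95% confidence interval from -1.04 to 0.055 (SE 0.24, adjusted p = 0.56 by edgeR's quasi-likelihood test), and -0.33 without the library labelled Ctrl replicate 4 (SE 0.19, adjusted p = 0.378, edgeR).

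*Flt1* encodes VEGFR1, which binds VEGF-A tightly and also exists in a soluble form, and lies at chr5:147561604-147726011 on the minus strand (30 exons). Its CPM was 90.71, 71.28, 98.2 and 70.00 in Ctrl replicates 1 to 4, against 70.48 and 63.3 in the LSD1skm-/- libraries. Here the library labelled Ctrl replicate 4 was the lowest of the Ctrl libraries and the only one of them below an LSD1skm-/- library. *Flt1* had a log2 fold change of -0.30 with all libraries (SE 0.17, 95% confidence interval -0.69 to 0.081, adjusted p = 0.584 by edgeR's quasi-likelihood test). Without that library the groups no longer overlapped, and the log2 fold change was -0.37 (SE 0.15, 95% confidence interval -0.73 to -0.018, adjusted p = 0.227, edgeR).

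*Kdr* and *Flt1* varied differently among the Ctrl libraries. *Kdr* as a percent of *Flt1* CPM was 19.2, 29.3, 13.6 and 35.99 in Ctrl replicates 1 to 4. For the LSD1skm-/- libraries it was 20.0 and 20.9. The LSD1skm-/- values lay inside the Ctrl range. The promoter printed for *Flt1* holds the ETS core and that for *Kdr* does not, and any relation of this to their levels was not tested.

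The angiopoietin receptor *Tek* and its partner *Tie1* also had lower means in LSD1skm-/- muscle, with overlap between the groups for both. *Tek* encodes TIE2, the receptor for angiopoietins, and lies at chr4:94739289-94874976 on the plus strand (23 exons). Its CPM was 17.39, 18.3, 20.06 and 21.6 in Ctrl replicates 1 to 4, against 17.74 and 14.41 in LSD1skm-/- replicates 1 and 2. Only LSD1skm-/- replicate 2 was below all Ctrl libraries. *Tie1*, an orphan receptor that pairs with TIE2, lies at chr4:118471191-118490061 on the minus strand (22 exons). It was at 25.29, 24.86, 26.96 and 34.7 CPM in Ctrl and at 22.28 and 25.15 CPM in LSD1skm-/- libraries. Here LSD1skm-/- replicate 1 was the lowest and replicate 2 lay inside the Ctrl range, so the 2 genes did not single out the same LSD1skm-/- library. The log2 fold changes were -0.27 for *Tek* (SE 0.14, 95% confidence interval -0.59 to 0.054) and -0.24 for *Tie1* (SE 0.16, 95% confidence interval -0.61 to 0.13), with adjusted p = 0.57 and 0.644 by edgeR's quasi-likelihood test. In the comparison that left out the library labelled Ctrl replicate 4 they were -0.21 for *Tek* (SE 0.14) and -0.11 for *Tie1* (SE 0.11).

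*Eng* and *Emcn* overlapped widely between the groups. *Eng* encodes endoglin, a co-receptor for BMP9 and other ligands of the TGF-beta family, and lies at chr2:32646595-32682669 on the plus strand (15 exons). Its CPM was 35.94, 33.45, 32.58 and 45.81 in Ctrl replicates 1 to 4, against 34.63 and 32.62 in LSD1skm-/- replicates 1 and 2. The library labelled Ctrl replicate 4 stood above 5 libraries that lay between 32.58 and 35.94 CPM. The log2 fold change of *Eng* was -0.14 (SE 0.15, 95% confidence interval -0.49 to 0.22), and without that library -0.014 (SE 0.10, 95% confidence interval -0.25 to 0.22). Exons of *Eng* overlap those of *Fpgs* on the opposite strand, and whether the counting used strand is not given in the sources used here.

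*Emcn* encodes endomucin, a sialomucin of capillary and venous endothelium, and lies at chr3:137341067-137432185 on the plus strand (12 exons). Its CPM was 9.751, 9.919, 7.942 and 12.92 in Ctrl replicates 1 to 4, against 8.476 and 9.225 in LSD1skm-/- replicates 1 and 2. Both LSD1skm-/- values were inside the Ctrl range. The log2 fold change of *Emcn* was -0.20 (SE 0.19), and -0.054 (SE 0.14) without the library labelled Ctrl replicate 4. Adjusted p-values with all libraries were 0.779 for *Eng* and 0.749 for *Emcn* by edgeR's quasi-likelihood test.

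*Vwf* was the exception in direction. It encodes von Willebrand factor, the large adhesive glycoprotein that endothelial cells store and release in hemostasis, and lies at chr6:125546774-125686679 on the plus strand (52 exons). It was at 14.21, 12.6, 13.57 and 13.31 CPM in Ctrl replicates 1 to 4 and at 14.71 and 16.51 CPM in LSD1skm-/- replicates 1 and 2. Both LSD1skm-/- libraries were above every Ctrl library, and the Ctrl libraries were closer together than for any other of the 10 genes relative to their mean (13.4 ± 0.665 CPM, SD, n = 4). *Vwf* had a log2 fold change of 0.22 (SE 0.11, 95% confidence interval -0.038 to 0.48), with an adjusted p = 0.57 by edgeR's quasi-likelihood test. It remained 0.22 (SE 0.12, adjusted p = 0.364, edgeR) against Ctrl replicates 1 to 3 alone.

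**Figure D1:**
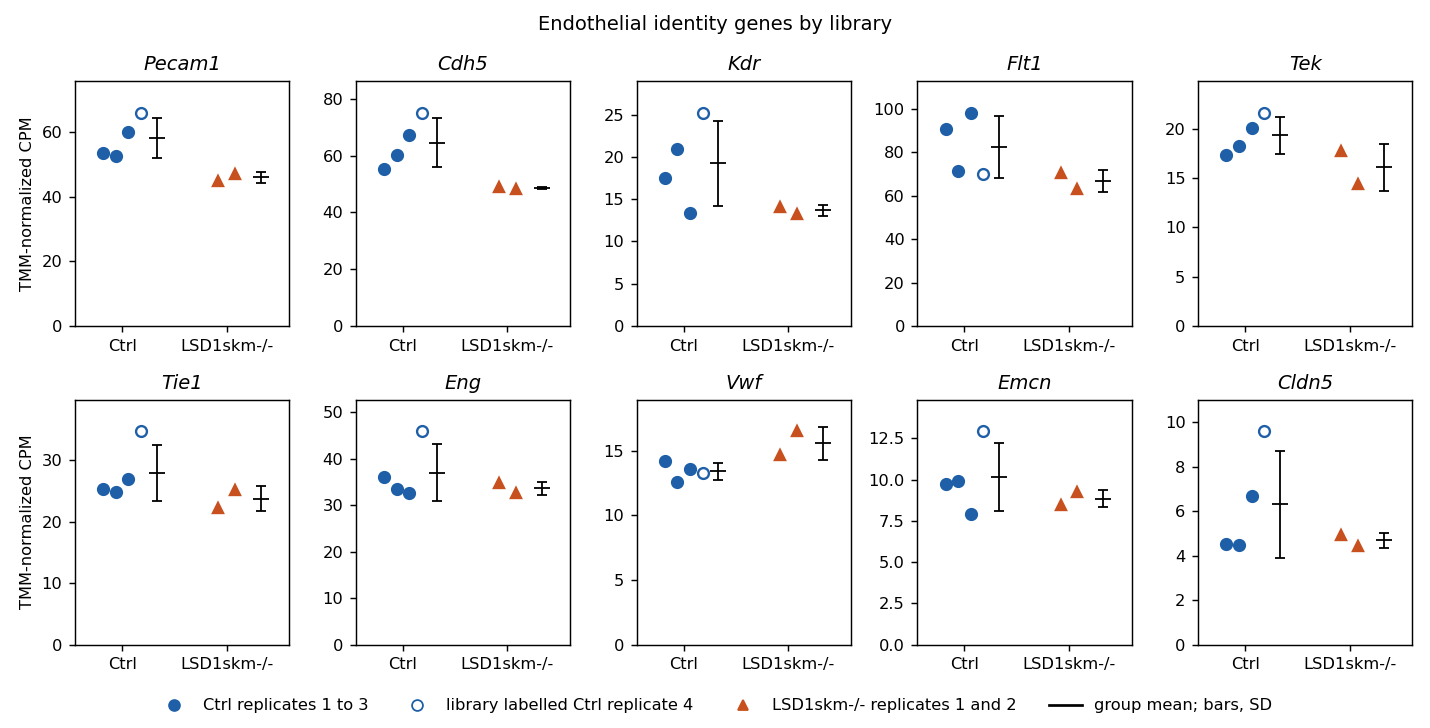
TMM-normalized CPM of each of the 10 endothelial genes (vertical axes, linear, from 0) in Ctrl replicates 1 to 3 (filled circles), the library labelled Ctrl replicate 4 (open circle) and LSD1skm-/- replicates 1 and 2 (triangles), with group means and SD bars. Both triangles lie below every circle for Pecam1 and Cdh5 and above every circle for Vwf, and the open circle is the highest point for 8 of the 10 genes.

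Across the 10 genes, 9 had a negative log2 fold change in LSD1skm-/- muscle and *Vwf* a positive one. Over all 11364 tested genes 51.4% had a negative one. The median was -0.29 over the 10 genes and -0.0077 over all tested genes. An unadjusted p-value under 0.05 with a lower level was reached by 2 of the 10, *Pecam1* and *Cdh5*, and by 3.88% of all tested genes (edgeR's quasi-likelihood test). It was reached with a higher level by 0 of the 10, against 5.02% of all genes. No adjusted p-value was under 0.05 for any of the 10 or any of the 11364 genes (0%) in edgeR, with 1011 genes at an unadjusted p under 0.05 and 46 genes past the adjusted threshold in DESeq2, none of them among the 10. Both LSD1skm-/- libraries lay below every Ctrl library for 2 of the 10 and for 8.02% of all genes, and above every Ctrl library for 1 of the 10 and for 9.8% of all genes.

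Without the library labelled Ctrl replicate 4, 9 of the 10 were again negative (51% of all tested genes), with a median of -0.18 against -0.0058 over all genes. Then 3 of the 10, *Pecam1*, *Cdh5* and *Flt1*, were lower with an unadjusted p-value under 0.05, as were 7.72% of all genes, and 0 of the 10 were higher, against 12.5% of all genes (edgeR). An adjusted p-value under 0.05 was reached by 5.39% of all genes (612 genes) and by none of the 10, whose adjusted p-values ran from 0.17 to 0.956 in edgeR. Both LSD1skm-/- libraries were below the remaining 3 Ctrl libraries for 3 of the 10 and for 17.3% of all genes, and above them for 1 of the 10 and for 20.3% of all genes. The size of the difference thus depended on that library, which had the highest level of 8 of the 10 genes. Leaving it out moved the log2 fold change most for *Cldn5* (from -0.44 to -0.16), *Kdr* (from -0.49 to -0.33) and *Emcn* (from -0.20 to -0.054).

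**Figure D2:**
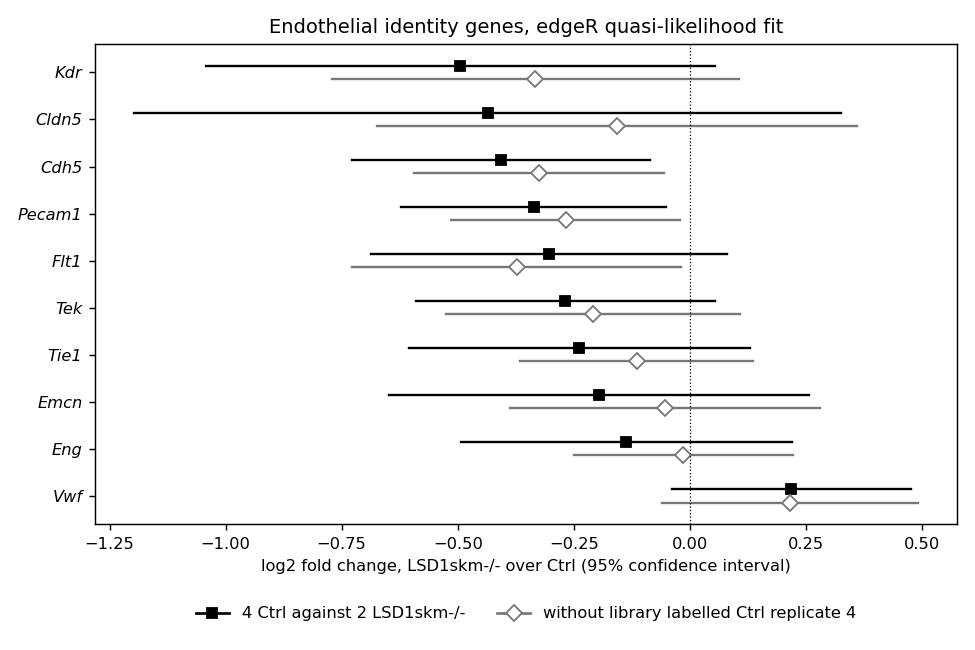
Log2 fold change of each of the 10 genes in LSD1skm-/- over Ctrl (horizontal axis, edgeR) with its 95% confidence interval, from all 6 libraries (black squares) and without the library labelled Ctrl replicate 4 (open diamonds). The intervals of Pecam1 and Cdh5 lie below 0 in both fits and that of Flt1 without the library, and all other intervals include 0. The Vwf estimate alone is to the right of 0.

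Whether the 10 genes differed alike was examined by setting each of the other 9 against *Pecam1* in the same library, a comparison chosen after the data were seen. *Vwf* as a percent of *Pecam1* CPM was 26.5, 23.9, 22.6 and 20.2 in Ctrl replicates 1 to 4, against 32.8 and 35.0 in LSD1skm-/- replicates 1 and 2. Both LSD1skm-/- libraries were above every Ctrl library, by 0.55 in mean log2 ratio (exact two-sided permutation p = 0.0667, the smallest that 4 against 2 libraries allow). With Ctrl replicates 1 to 3 alone the difference was 0.48 (exact two-sided permutation p = 0.1, again the smallest the design allows). The groups had to separate in this ratio, because *Vwf* was higher and *Pecam1* lower without overlap. The ratio therefore gives no support beyond those levels. After Benjamini-Hochberg adjustment over the 9 ratios, the exact permutation p-values for *Vwf* were 0.6 and 0.45.

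The other 8 ratios to *Pecam1* overlapped between the groups when all libraries were used. Their mean log2 differences ran from -0.12 for *Kdr* to 0.21 for *Eng*, with exact two-sided permutation p-values from 0.267 to 1 over these 8 ratios. *Cdh5* was at 103, 114.1, 112 and 113.6 percent of *Pecam1* in Ctrl and 108.8 and 102.4 percent in LSD1skm-/- libraries. *Eng* was at 67.0, 63.5, 54.2 and 69.4 percent in Ctrl and 77.2 and 69.1 percent in LSD1skm-/- libraries. Against Ctrl replicates 1 to 3 alone, *Eng*, *Tie1* and *Emcn* were also higher relative to *Pecam1* in both LSD1skm-/- libraries. The differences were 0.25, 0.15 and 0.22 in mean log2 ratio. Their own log2 fold changes in that comparison were -0.014, -0.11 and -0.054, and that of *Pecam1* was -0.27. The ratios of *Kdr*, *Flt1*, *Tek*, *Cdh5* and *Cldn5* still overlapped. With so few libraries, an overlap does not show that 2 genes differed alike. *Vwf* as a percent of *Emcn* was 145.7, 127, 170.8 and 103 in Ctrl and 173.6 and 179 in LSD1skm-/- libraries. *Tie1* as a percent of *Tek* was 145.4, 135.9, 134.4 and 160.6 in Ctrl and 125.6 and 174.5 in LSD1skm-/- libraries, so that the LSD1skm-/- libraries lay on either side of all Ctrl libraries.

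As a description over the 6 libraries, each gene's log2 CPM was set against the mean of the other 9. Pearson's r was 0.92 for *Tie1* and *Pecam1*, 0.90 for *Cdh5*, 0.83 for *Cldn5* and *Eng*, 0.80 for *Tek*, 0.68 for *Emcn* and 0.65 for *Kdr*. It was 0.032 for *Flt1* and -0.64 for *Vwf*. These points share their library, its scaling and the library labelled Ctrl replicate 4, which had the highest mean log2 CPM of the 10 genes, 4.88, where Ctrl replicates 1 to 3 lay between 4.52 and 4.60 and the LSD1skm-/- libraries at 4.41 and 4.38.

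Levels were compared between genes per kilobase of the longest coding transcript in GENCODE vM21. In Ctrl libraries *Pecam1* led with 16.9 ± 1.80 CPM per kb (SD, n = 4), followed by *Cdh5* with 16.1 ± 2.16, *Flt1* with 12.0 ± 2.04 and *Eng* with 10.8 ± 1.78 CPM per kb. A gap without overlap of the Ctrl libraries separated *Eng* from *Tie1*, at 6.60 ± 1.08 CPM per kb. *Cldn5*, *Tek*, *Emcn* and *Kdr* came next, with Ctrl means from 4.45 down to 3.25 CPM per kb, and each overlapped its neighbour in the order. *Vwf* was lowest, at 1.52 ± 0.0754 CPM per kb in Ctrl, below *Kdr* without overlap, and its mean in LSD1skm-/- libraries was 1.77 ± 0.144 CPM per kb (SD, n = 2). *Cldn5*, which had the fewest reads, was thus of middle rank per length. In LSD1skm-/- libraries *Pecam1*, *Cdh5*, *Tie1*, *Kdr* and *Vwf* held their ranks, whereas *Eng* stood above *Flt1* (9.83 against 9.70 CPM per kb) and *Cldn5* moved from rank 6 to rank 8.

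Over all other tested genes, the 10 whose log2 CPM followed the mean of the endothelial genes most closely over the 6 libraries were *Flna*, *Mmp11*, *Ehd2*, *Pear1*, *Ccm2l*, *Anxa3*, *Cav1*, *Elk3*, *Hspa12b* and *Prkd2*, with Pearson's r from 0.995 down to 0.976. They were picked for this likeness, and r was between 0.919 and 0.974 over the 5 libraries without the library labelled Ctrl replicate 4. *Flna*, the actin cross-linker filamin A, was at 34.55, 33.21, 36.87 and 52.92 CPM in Ctrl replicates 1 to 4 and at 30.66 and 27.84 CPM in the LSD1skm-/- libraries. *Ccm2l* was at 5.382, 4.528, 5.739 and 11.84 CPM in Ctrl and 4.348 and 3.802 CPM in LSD1skm-/- libraries. *Cav1*, which encodes the coat protein of caveolae, and *Elk3*, an ETS factor, were also on the lists of endothelial genes described next.

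Another 98 genes of the vascular pathway were described in 6 lists, and 90 of them were tested. Of the 90, 73 had a negative log2 fold change in LSD1skm-/- muscle (51.4% of all tested genes), 17 were lower at an unadjusted p-value under 0.05 (3.88% of all) and 3 were higher (5.02% of all), with none past an adjusted p-value of 0.05 in edgeR's quasi-likelihood test. With that fit repeated without the library labelled Ctrl replicate 4, 63 were negative (51% of all), 15 lower (7.72% of all) and 4 higher (12.5% of all) at the unadjusted threshold. The same shares over all tested genes are the background for the counts in each list below.

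Of the upstream regulators, all 17 tested endothelial transcription factors were negative with all libraries, with a median log2 fold change of -0.26 and 6 lower at an unadjusted p under 0.05 (edgeR). *Gata2*, a regulator of endothelial and blood cell genes, was at 6.684, 4.806, 6.812 and 5.784 CPM in Ctrl and 3.466 and 3.882 CPM in LSD1skm-/- libraries, without overlap. Its log2 fold change was -0.71 (SE 0.19, adjusted p = 0.557, edgeR), and -0.73 against Ctrl replicates 1 to 3 alone (adjusted p = 0.0956, edgeR). *Epas1*, which encodes the hypoxia-inducible factor HIF-2 alpha, was at -0.02, and the flow-responsive *Klf2* at -0.13. *Klf2* was at 22.36 CPM in the library labelled Ctrl replicate 4 and at 9.925 to 11.67 CPM in Ctrl replicates 1 to 3, and its fold change turned to 0.21 without that library. Without that library 14 of the 17 were negative, 4 were lower at the unadjusted threshold and the median was -0.16.

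Growth factor ligands and co-receptors, taken as 1 list, did not share the direction of the receptors. The co-receptor genes *Nrp1* and *Nrp2*, named here after their values were seen, were negative at -0.21 and -0.27. Against Ctrl replicates 1 to 3 alone they were at -0.15 and -0.18. The receptor gene *Flt4*, also on this list and named likewise, was at 0.053. Of 13 tested, 6 were negative, the median log2 fold change was 0.0086, and 1 was lower and 2 higher at an unadjusted p under 0.05 (edgeR). *Vegfa*, the ligand of both *Kdr* and *Flt1*, was at 218, 184.5, 170.6 and 259.5 CPM in Ctrl and 253.5 and 165.4 CPM in LSD1skm-/- libraries, which stood near opposite ends of the Ctrl range. *Vegfb*, a ligand of *Flt1* and not of *Kdr*, was at 118.3, 115.5, 104.1 and 107.4 CPM in Ctrl and 123.7 and 148.1 CPM in LSD1skm-/- libraries, higher without overlap, with a log2 fold change of 0.29 (SE 0.11, adjusted p = 0.557, edgeR) and of 0.27 against Ctrl replicates 1 to 3 alone. *Apln*, which encodes the peptide apelin, was at 0.6366, 1.201, 1.217 and 3.109 CPM in Ctrl and 3.529 and 4.466 CPM in LSD1skm-/- libraries. The library labelled Ctrl replicate 4 stood nearer to the LSD1skm-/- libraries than to the other Ctrl libraries. Without it, *Apln* rose by 1.98 on the log2 scale (SE 0.29, adjusted p = 0.0113, edgeR's quasi-likelihood test), against 1.36 with all libraries (adjusted p = 0.557, edgeR). *Angpt2*, a ligand of *Tek* named here after its values were seen, was the gene lower at the unadjusted threshold, at -0.55 on the log2 scale and -0.51 against Ctrl replicates 1 to 3 alone.

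Of 34 tested surface and junction genes of endothelium, 26 were negative (51.4% of all tested genes), with a median log2 fold change of -0.33. At an unadjusted p under 0.05, 5 were lower (3.88% of all) and 0 higher (5.02% of all, edgeR). *Adgrf5*, an adhesion G protein-coupled receptor, was at 121.9, 100, 127.4 and 118 CPM in Ctrl and 87.12 and 68.01 CPM in LSD1skm-/- libraries, without overlap, a log2 fold change of -0.59 (SE 0.15, adjusted p = 0.557, edgeR) and of -0.58 against Ctrl replicates 1 to 3 alone (adjusted p = 0.0835, edgeR). *Cav1* was at -0.35. Leaving out the library labelled Ctrl replicate 4, 24 were negative and the median was -0.23. Then 6 were lower (7.72% of all) and 1 higher (12.5% of all) at the unadjusted threshold. *Mcam*, the adhesion molecule CD146, singled out after its values were seen, went the other way. It was at 14.41, 14.17, 18.38 and 36.21 CPM in Ctrl replicates 1 to 4 and 30.44 and 39.27 CPM in LSD1skm-/- libraries. With all libraries the groups overlapped and its log2 fold change was 0.74 (SE 0.37, adjusted p = 0.57, edgeR), and without the library labelled Ctrl replicate 4 it rose by 1.16 on the log2 scale (SE 0.16, adjusted p = 0.00898, edgeR). *Apln* and *Mcam* were the 2 of the 90 genes past the adjusted threshold in that comparison.

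Genes of capillary transport had a median log2 fold change of -0.39, with 10 of 11 negative and 3 lower at an unadjusted p under 0.05 (edgeR). *Timp4* was at 40.51, 37.15, 41.48 and 47.67 CPM in Ctrl and 31.13 and 31.4 CPM in LSD1skm-/- libraries, and the water channel gene *Aqp1* had a log2 fold change of -0.32. *Lpl*, which encodes lipoprotein lipase and is made by muscle fibers and fat as well, was at 0.016. All 11 tested arterial and Notch genes were negative, with a median of -0.28 and 2 lower at the unadjusted threshold. *Dll4*, the Notch ligand of arteries and tip cells, was at 7.205, 6.561, 8.00 and 5.898 CPM in Ctrl and 4.695 and 4.387 CPM in LSD1skm-/- libraries, without overlap, a log2 fold change of -0.61 (SE 0.17, adjusted p = 0.557, edgeR) and of -0.68 against Ctrl replicates 1 to 3 alone (adjusted p = 0.0537, edgeR). *Jag2* was at -0.032 and *Notch4* at -0.31. Against Ctrl replicates 1 to 3 alone the medians of these lists were -0.31 for capillary transport and -0.14 for arterial and Notch genes. In each list 9 of 11 were then negative, with 3 capillary transport genes and 1 arterial gene lower at the unadjusted threshold (7.72% of all tested genes).

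Venous genes were few, since 4 of 7 passed the filter. Of these, 3 were negative, with a median over the list of -0.13 (-0.053 without the library labelled Ctrl replicate 4), and *Lrg1*, which encodes a secreted glycoprotein, was at 21.7, 12.57, 16.29 and 24.51 CPM in Ctrl and 23.38 and 44.03 CPM in LSD1skm-/- libraries (log2 fold change 0.84, SE 0.31, and 1.002 against Ctrl replicates 1 to 3 alone). *Nr2f2*, the venous identity factor COUP-TFII, was at -0.10. Lymphatic genes, which mark another vessel type and are not among the 6 lists, were negative for 1 of 4 tested, and their median was 0.20 (0.35 without that library), with *Lyve1* at 0.57 and *Pdpn* at 0.30 (0.49 and 0.51 without it). *Prox1* and *Reln*, named after their values were seen, were at 0.092 and -0.71 (0.22 and -0.39 without it). With all libraries 0 of the 4 had an unadjusted p under 0.05 (edgeR), and without that library 1 was higher at this threshold. The medians of the transcription factor, surface and junction, capillary transport, arterial and venous lists were thus negative like that of the 10 endothelial genes. That of the ligand and co-receptor list was near 0, at 0.0086 against -0.0077 over all tested genes (0.14 without that library). That of the lymphatic list was positive. The difference between lists was not tested.

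**Figure D3:**
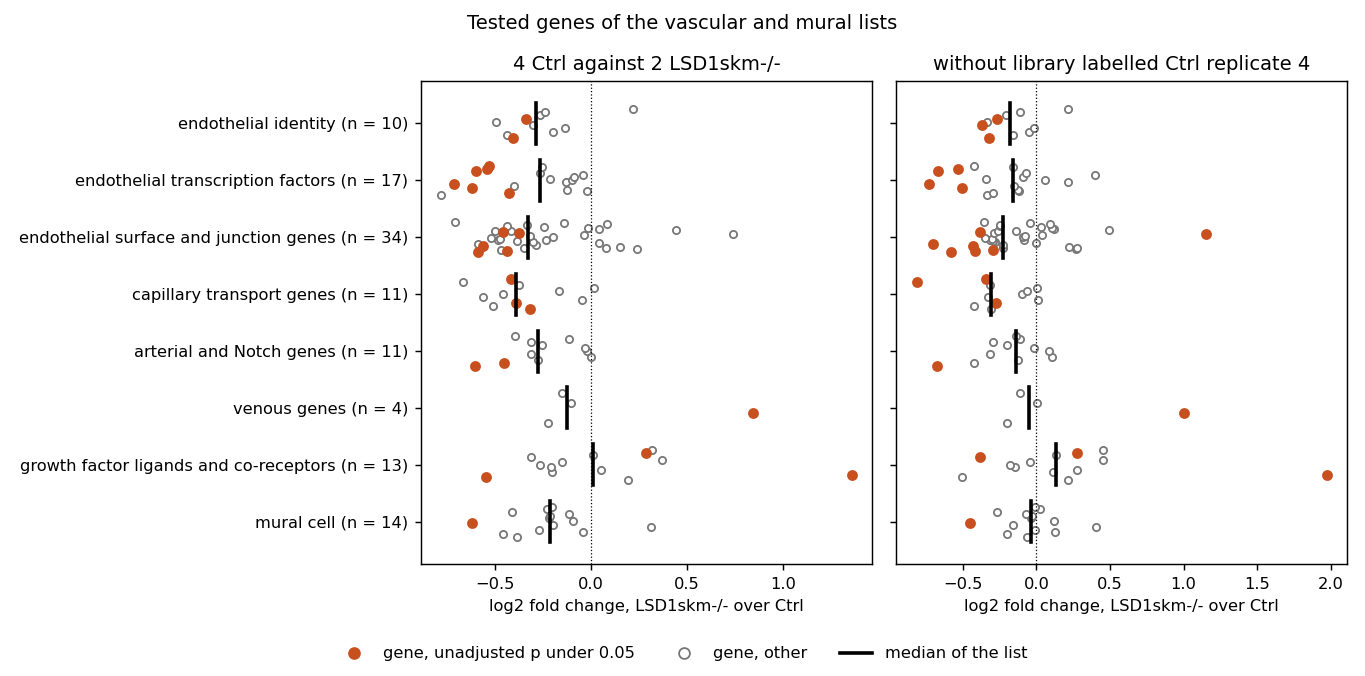
Log2 fold change in LSD1skm-/- over Ctrl (horizontal axes, edgeR) of every tested gene of the endothelial identity list, 6 other vascular lists (without lymphatic genes) and the mural list, with all 6 libraries (left) and without the library labelled Ctrl replicate 4 (right). Filled points had an unadjusted p under 0.05 and bars mark list medians, which run from -0.39 for capillary transport genes to 0.0086 for ligands and co-receptors on the left.

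Markers of other cells were also compared, and the sums of the mural, adipocyte, fibroblast, macrophage and Schwann cell lists overlapped between the groups. Pericytes and smooth muscle cells ensheathe the endothelium, and 13 of 14 tested mural cell genes were negative, with a median log2 fold change of -0.22. Without the library labelled Ctrl replicate 4, 10 of the 14 were negative and the median was -0.034. *Myh11*, the smooth muscle myosin, was lower without overlap at -0.62 on the log2 scale, and the pericyte gene *Rgs5* was at -0.12 and *Acta2* at -0.38. Against Ctrl replicates 1 to 3 alone these were -0.45, -0.068 and -0.066. The summed level of the mural genes overlapped, at 422.8, 368.6, 484.8 and 550.9 CPM in Ctrl and 424.4 and 381.5 CPM in LSD1skm-/- libraries. That of the 10 endothelial genes did not, at 324.1, 308.7, 346.8 and 374.1 CPM in Ctrl and 281 and 274.4 CPM in LSD1skm-/- libraries. Such sums are led by abundant genes such as *Rgs5*, at 271.3 CPM in Ctrl replicate 1, and 7 of the 10 endothelial genes overlapped singly. The arterial and Notch sum did not overlap either, at 94.33, 91.43, 110.4 and 107.5 CPM in Ctrl and 89.74 and 85.61 CPM in LSD1skm-/- libraries.

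Fibroblast genes ran the other way. All 9 were positive, 5 of them higher at an unadjusted p under 0.05 (edgeR). Over all tested genes that share was 5.02%, and 12.5% without the library labelled Ctrl replicate 4. Summed levels were from 493.6 to 763.2 CPM in Ctrl and 677.9 and 802.5 CPM in LSD1skm-/- libraries, with *Dcn* at 0.38 and *Col3a1* at 0.47. Without the library labelled Ctrl replicate 4, 8 of the 9 were higher at that threshold and 2 passed an adjusted p of 0.05, *Col3a1*, which rose by 0.85 on the log2 scale (adjusted p = 0.00651, edgeR), and *Lum*, named here after its values were seen, by 0.81 (adjusted p = 0.0296, edgeR). Red blood cell genes, whose transcripts come with the blood in the vessels, were all 5 positive, with 4 higher at the unadjusted threshold, and their sums ranged from 28.16 to 52.24 CPM in Ctrl against 64.12 and 65.83 CPM in LSD1skm-/- libraries, with *Hbb-bs* at 0.67, *Hba-a1* at 0.71 and *Hbb-bt* at 0.91. Without that library all 5 were higher at the unadjusted threshold and 2 passed the adjusted one, *Hbb-bs* at 0.82 (adjusted p = 0.0365, edgeR) and *Alas2*, named after its values were seen, at 0.90 (adjusted p = 0.0475, edgeR). The endothelial and the red blood cell genes thus stood on opposite sides. Macrophage genes were positive for 8 of 9, with sums from 37.65 to 73.38 CPM in Ctrl and of 55.33 and 87.87 CPM in LSD1skm-/- libraries, and *C1qa* at 0.58 and *C1qc* at 0.56 (0.57 and 0.61 without that library).

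Adipocyte genes differed far more than the endothelial genes and also within Ctrl. Their summed level was 126, 122.2, 25.25 and 198.3 CPM in Ctrl replicates 1 to 4 and 54.38 and 64.05 CPM in LSD1skm-/- libraries. Most of the LSD1skm-/- sums came from *Thrsp*, at 49.4 and 53.44 CPM. *Thrsp* was at 25.15, 20.55, 16.72 and 55.85 CPM in Ctrl replicates 1 to 4. The defining gene *Adipoq*, outside the rule for named genes and chosen after its values were seen, was at 12.79, 9.703, 0.7826 and 19.57 CPM in Ctrl and near 0 in LSD1skm-/- libraries, at 0.126 and 0.5583 CPM. *Cfd* and *Cidec* were at -3.54 and -4.98 on the log2 scale, and at -3.25 and -4.64 without the library labelled Ctrl replicate 4. *Thrsp* went the other way, at 0.80 with all libraries (adjusted p = 0.581, edgeR), and it rose by 1.31 without that library (SE 0.16, adjusted p = 0.00602, edgeR). Ctrl replicate 3, whose *Adipoq* level was near that of the LSD1skm-/- libraries, had the second highest sum of the endothelial genes. It also had the lowest Ctrl level of *Kdr* (13.36 CPM), *Eng* (32.58 CPM) and *Emcn* (7.942 CPM). Any relation between adipocyte and endothelial levels was not tested.

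All 8 slow-twitch fiber genes were negative, 7 of them lower at an unadjusted p under 0.05 (edgeR), against 3.88% of all tested genes. They summed to between 1034 and 2074 CPM in Ctrl and to 443.9 and 797 CPM in LSD1skm-/- libraries, with *Myh7* at -2.32, *Atp2a2* at -1.01 and *Myl3* at -0.34. Without the library labelled Ctrl replicate 4, 7 were again lower at the unadjusted threshold, and *Myh7* fell by 2.45 on the log2 scale (adjusted p = 0.0313, edgeR), the only gene of the list past the adjusted one. Of 7 fast-twitch genes 4 were negative, with *Myh4* at -0.42 and *Tnnt3* at -0.15 (-0.52 and -0.18 without that library). Schwann cell genes included *Mbp* at -0.33 and *Prx* at -0.68 (-0.094 and -0.49 without that library), both with overlap between the groups. The part of these cell and fiber markers in the endothelial difference was not tested.

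**Figure D4:**
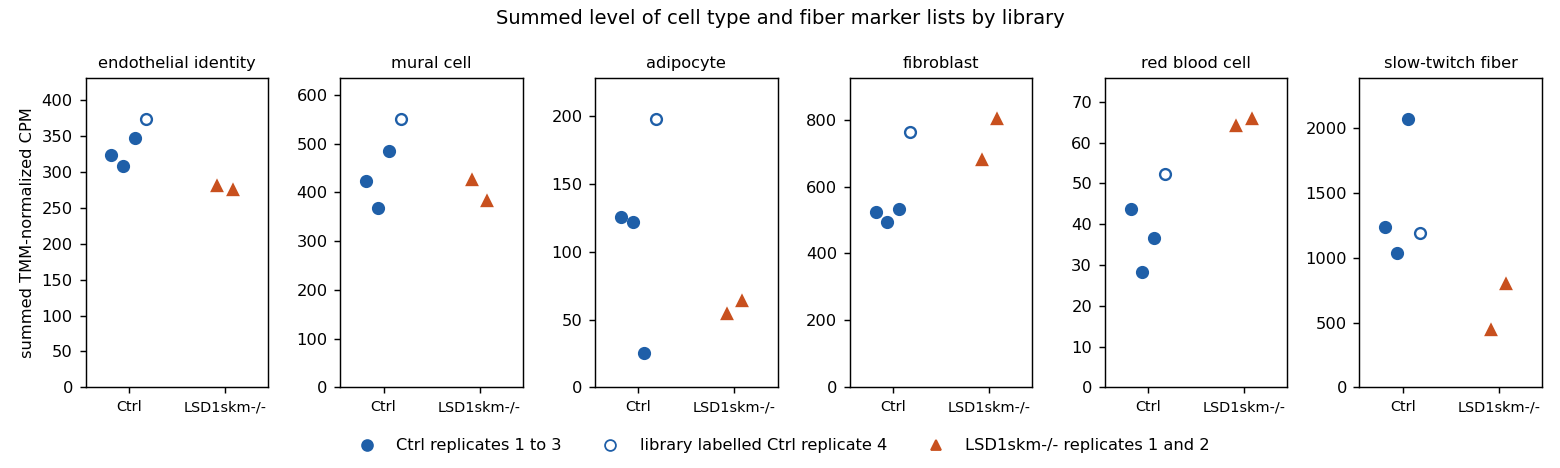
Summed TMM-normalized CPM (vertical axes, linear, from 0) of the endothelial identity, mural, adipocyte, fibroblast, red blood cell and slow-twitch fiber lists in each library, with symbols for Ctrl replicates 1 to 3 (filled circles), the library labelled Ctrl replicate 4 (open circle) and LSD1skm-/- replicates 1 and 2 (triangles). The triangles lie below every circle for the endothelial and slow-twitch lists, above every circle for red blood cell genes, and for the other lists at least 1 triangle lies among the circles.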

How the data were processed

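Counts of reads per gene, as deposited by the authors, were analysed for libraries of gastrocnemius from Ctrl and LSD1skm-/- mice. They are whole numbers, not normalized, with gene symbols only. In the study's methods, reads of 50 bases (single-end) were cleared of adapter dimers and mapped to mm10, and those aligned uniquely were quantified per gene, with htseq-count and HOMER named and the aligner not given in the sources used here. The submitters' processing notes name bcl2fastq 2.20.0.422. Unique mapping can undercount genes with near-identical copies, but 9 of the 10 endothelial genes share no stretch of 50 bases with another gene, and *Eng* shares 0.0297% of its stretches.

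Groups follow the sample labels, which do not say that libraries come from separate mice, so p-values measure the spread between these libraries. The planned design of 4 against 4 libraries became 4 against 2. The 11364 genes whose count averaged above 50 were scaled by TMM and tested with edgeR 4.0.16 in R 4.3.3 (quasi-likelihood test, with the group as its single term), with Benjamini-Hochberg adjustment over all of them. SE was derived from the log2 fold change and its F statistic. DESeq2 1.42.0 was the alternative. Log2 CPM used a prior count of 2. Other alternatives were scalings, filters, a replicate block and each library left out in turn. Those that leave out Ctrl replicate 4 and also change the test or scaling, like the ratios to *Pecam1*, were chosen after the data were seen. The test was tried on simulated data.

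Named genes were the 10 endothelial genes, of every other list the 2 tested genes with the highest mean CPM and the gene with the lowest p, the 10 genes most like the endothelial mean, and *Kdm1a*, and the text says where another was added. Genes and lists were chosen with earlier results of these data known. Of 174 listed genes 173 were in the table. Coordinates and transcripts are from GENCODE vM21 (GRCm38). Promoters of *Pecam1*, *Cdh5* and *Vwf* were not used here. The values of 1 gene of the lists are not reported here.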

Additional observations from a re-analysis of the deposited data

Results flagged for a closer look

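Of 26 items examined for a library far from the rest of its group, 1 stood apart on the log2 scale, on which the items were examined. *Kdm1a*, the targeted gene, was far lower in the library labelled Ctrl replicate 4 than in the other 3 Ctrl libraries. Its distance from the nearest of them was 0.88 of the range of the group on the log2 scale, past the limit, and 0.75 on the linear scale, below the limit. Chance alone gives such a gap in about 1 of 20 groups. On the linear scale the summed CPM of the fibroblast genes passed the limit instead, with a gap of 0.85 for the same library (0.82 on the log2 scale). None of the 10 endothelial genes passed this limit on either scale.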

How the results depend on the processing

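No endothelial gene reached an adjusted p-value under 0.05 in any of the settings run. Of the 170 repeats of their fold changes, 145 kept direction and side of the unadjusted threshold, 11 lost and 11 gained it, and 3 reversed. The 2 genes past the unadjusted threshold became 0 with scaling to library size, 4 with no filter beyond 1 count, and 0 to 3 with each library left out, which was 0 without LSD1skm-/- replicate 2, 1 (*Tek*) without LSD1skm-/- replicate 1 and 3 without Ctrl replicate 4. Without Ctrl replicate 4 and with scaling to library size, 1 passed (*Vwf*, higher), 7 were lower, the median was -0.11 against -0.29, and *Eng* and *Emcn* reversed to 0.057 and 0.014. Leaving out each library moved the median from -0.35 to -0.18. Counts over all tested genes moved too, from 391 to 2292 past an unadjusted p of 0.05 with each library left out. Replicates 1 and 2 of both groups share a number, and the labels name nothing else they have in common. Their deviations from the group means correlated at -0.23 and -0.033, and those of the crossed pairs at 0.23 and 0.033. With 2 LSD1skm-/- libraries the deviations mirror each other, so these values cannot show whether the libraries were paired. With a replicate block 1 gene passed (*Kdr*), 8 were lower, the median was -0.16, *Cldn5* reversed to 0.057, and over all genes 632 had an adjusted p under 0.05 (edgeR). In that fit Ctrl replicates 3 and 4 have no LSD1skm-/- library in their block, so its fold changes rest on replicates 1 and 2 alone. The cause of these changes was not tested. Where a lone LSD1skm-/- library remained, it was assumed to vary like the Ctrl libraries. The depth allows all 10 genes to be counted in every library.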
